A study of Mus musculus with 3 samples.

Results

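Marker genes of radial glia, the neural stem cells of the embryonic brain, were read in cultures labelled as purified interneurons of the medial ganglionic eminence (MGE). The 6 genes were Nes, Vim, Fabp7, Hopx, Ptprz1 and Prom1, and their probe sets were taken where the platform's table gave that symbol alone. All 6 genes had such a probe set. They held 7 of the 41345 probe sets, Vim having 2, and 6 of the 22180 genes with a probe set of their own. The MGE is a ventral forebrain structure whose progenitors make many cortical and striatal GABA interneurons. Tissue came from wild-type CD-1 mouse embryos at embryonic day 13 and was grown at 59000 cells per square centimetre on laminin and poly-D-lysine with FGF2 (40 ng/ml), B27 (2%) and L-glutamine (500 µM). AraC (1 µM), a nucleoside analogue that kills cells in DNA synthesis, was added on day 5 for 24 h, the medium was changed 3 times at intervals of 2 h, and the cells were kept for 2 further days. The 3 biological replicate cultures form 1 group, and each was read on 1 single-colour Affymetrix array.

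All cultures had FGF2 and AraC, and none without AraC, before AraC or of another cell type belongs to the series. A value can therefore be set against background or against the other cultures, and not against another condition. The labels do not say whether the cultures came from separate litters, so the spread given here is that between these 3 cultures. Each array read a whole culture. Fewer cells of a type and less RNA per cell cannot be told apart in such samples, and which cells gave a signal cannot be told. Of the listed markers, 10 of 10 neuronal genes were above background, Gad1, Gad2 and Lhx6 among them, as were 12 of 12 cell cycle, 10 of 12 astrocyte and 7 of 8 oligodendrocyte precursor genes, beside 63.4% of all genes tested. The median log2 signal over all probe sets was 6.57, 6.52 and 6.56 in cultures 1, 2 and 3.

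Radial glia span the wall of the embryonic brain, touch the ventricle with an apical end foot and send a long basal fibre to the outer surface. They divide to renew themselves and to make neurons, and later many of them become astrocytes, ependymal cells or adult neural stem cells. Their fibre holds the intermediate filament proteins nestin (Nes) and vimentin (Vim), their cytoplasm the lipid carrier Fabp7 and their apical membrane the pentaspan protein prominin 1 (Prom1, CD133). Ptprz1, a receptor phosphatase that carries chondroitin sulfate, and Hopx, a small homeodomain protein that does not bind DNA, are used as markers of the outer, or basal, radial glia of large cortices. None of the 6 is found in radial glia alone: astrocytes, oligodendrocyte precursors or mesenchymal cells express several of them.

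The sequence before the start is shown for Nes, Vim, Fabp7 and Hopx, the 4 members whose RefSeq window (GRCm38.p6) lies outside their own annotated transcripts. Each is the 250 bases before the start, 5′ to 3′ on the gene's strand: chr3:87970843-87971092 (+) for Nes, chr2:13574061-13574310 (+) for Vim, chr10:57784673-57784922 (+) for Fabp7 and chr5:77115124-77115373 (-) for Hopx. Capitals mark every match, on either strand, to 5 short motifs: the TATA box (TATAAA), the GC box (GGGCGG), the CCAAT box (CCAAT), the Sox core (ACAAT) and the core bound by Rbpj, the Notch effector (TGGGAA).
Nes: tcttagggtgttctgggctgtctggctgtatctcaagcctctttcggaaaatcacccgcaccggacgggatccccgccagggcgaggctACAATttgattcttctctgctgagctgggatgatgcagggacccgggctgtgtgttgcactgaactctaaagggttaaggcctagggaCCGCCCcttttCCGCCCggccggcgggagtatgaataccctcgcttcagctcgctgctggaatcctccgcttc
Vim: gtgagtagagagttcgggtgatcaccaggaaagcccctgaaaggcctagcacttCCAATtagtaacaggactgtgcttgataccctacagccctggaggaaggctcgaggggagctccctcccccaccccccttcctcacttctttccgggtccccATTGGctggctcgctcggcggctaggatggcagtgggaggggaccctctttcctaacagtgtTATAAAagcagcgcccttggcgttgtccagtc
Fabp7: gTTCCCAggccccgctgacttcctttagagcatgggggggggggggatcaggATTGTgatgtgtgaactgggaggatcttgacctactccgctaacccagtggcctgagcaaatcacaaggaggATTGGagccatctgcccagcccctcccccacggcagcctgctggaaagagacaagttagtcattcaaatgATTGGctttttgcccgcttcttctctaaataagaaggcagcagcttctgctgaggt
Hopx: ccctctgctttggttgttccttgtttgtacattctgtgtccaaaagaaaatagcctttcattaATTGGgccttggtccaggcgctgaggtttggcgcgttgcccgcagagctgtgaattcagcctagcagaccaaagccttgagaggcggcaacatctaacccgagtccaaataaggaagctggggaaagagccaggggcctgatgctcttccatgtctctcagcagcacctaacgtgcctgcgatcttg
The 4 windows shared no motif. The Nes window held a pair of GC boxes, 73 and 62 bases before the start, and a Sox core, and the Vim window was the only one of the 4 with a TATA box, 32 bases before the start. CCAAT boxes lay in the Vim, Fabp7 and Hopx windows (3 of 4, against 33.8% of all 32851 RefSeq windows of this length), and Sox cores in those of Nes and Fabp7 (2 of 4, against 27.7%). An Rbpj core was found in the Fabp7 window (1 of 4, against 21.6%), and the TATA and GC boxes stood in 1 of 4 windows each, against 12.4% and 32.7%. These are matches of letters and were not tested for binding.

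The cultures gave clear signal for 4 of the 6 genes, weaker signal for Prom1 and none that passed the test for Hopx. Background was read from receptors of smell, pheromones and bitter taste, which are not expected in this tissue (1440 probe sets). The background line, at 6.26 log2 units, was their 95th percentile. Whether a mean lay above it was tested with limma (1-sided moderated test, Benjamini-Hochberg adjustment over 22081 probe sets). By that test 5 of 6 members were above background, against 63.4% of the 20751 genes tested. With a margin of 1 log2 unit over the line 4 of 6 were, against 47.6%. Levels of different genes are not set against each other, since probe sets bind with unequal strength.

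Among the intermediate filament genes, Nes gave 9.56, 9.28 and 9.20 log2 units in cultures 1, 2 and 3 (mean 9.35 ± 0.19, SD, n = 3). Every culture lay well over the line, and the mean exceeded it by 3.09 (95% confidence interval 2.84 to 3.33, limma adjusted p = 5.81e-06). For Vim, the first probe set gave 13.05, 12.89 and 12.92 (12.95 ± 0.08), which is 6.69 over the line (6.53 to 6.85, adjusted p = 1.37e-06). The second Vim probe set gave 10.31, 10.21 and 9.98 (10.17 ± 0.17), 3.91 over the line (adjusted p = 2.7e-06). Both Vim probe sets thus passed and were highest in culture 1, but the first was lowest in culture 2 and the second in culture 3.

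Fabp7, the brain lipid-binding protein that carries fatty acids in radial glia, gave 13.58, 13.10 and 13.33 in cultures 1, 2 and 3 (13.34 ± 0.24). It stood 7.08 over the line (6.78 to 7.37, adjusted p = 1.47e-06), far beyond the 0.48 between its highest and lowest culture. Ptprz1 gave 12.65, 12.23 and 12.44 (12.44 ± 0.21), which is 6.18 over the line (5.91 to 6.45, adjusted p = 1.52e-06). In both genes culture 1 was highest, culture 2 lowest and culture 3 close to the mean.

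Prom1, which sits on membrane protrusions of the apical surface, was nearer to background. Its 7.29, 6.93 and 6.99 (7.07 ± 0.19) all lay over the line, by 0.81 in the mean (0.56 to 1.06, adjusted p = 0.000748). With a margin of 1, or with the line at the receptors' 99th percentile (7.10), its mean was under the limit. Hopx gave 6.37, 6.32 and 6.34 (6.34 ± 0.03). All 3 cultures were over the line, but by 0.081 in the mean (-0.055 to 0.218), and the test was not passed (adjusted p = 0.137). At the receptors' 90th percentile (5.82) Hopx did pass (adjusted p = 0.000338), so whether it counts as above background rests on where the line is drawn.

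**Figure D1:**
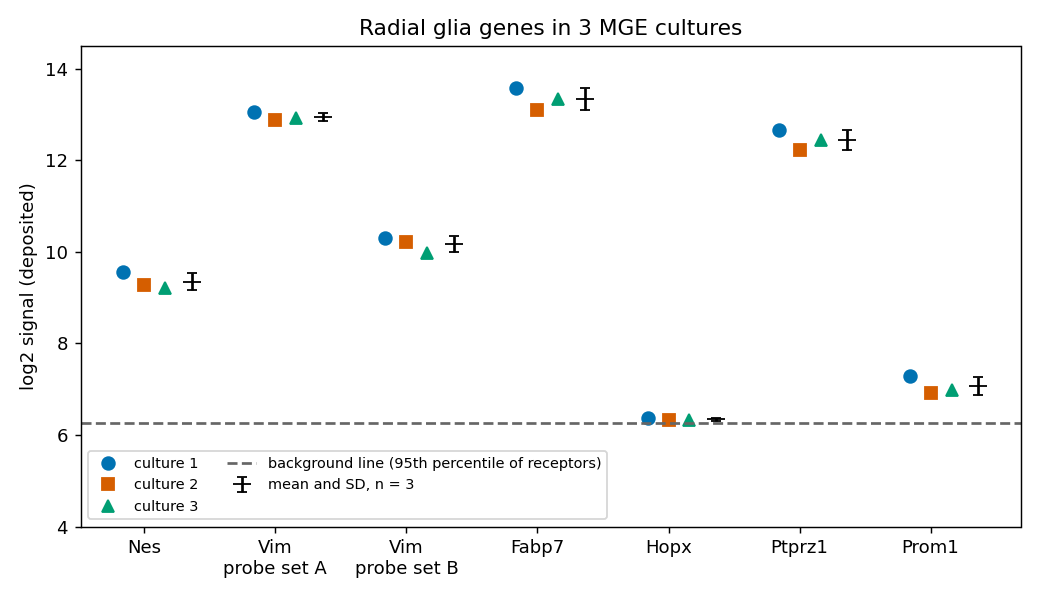
Log2 signal (vertical axis, deposited values) of the 7 probe sets of the radial glia genes in each of the 3 cultures (blue circles, culture 1; orange squares, culture 2; green triangles, culture 3), with mean and SD beside them. The dashed line is background at 6.26: Fabp7, Vim, Ptprz1 and Nes lie far above it, Prom1 0.81 above it and Hopx on it, and culture 1 is the highest in all 7.

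Other genes that mark or maintain radial glia were above background almost throughout. Among the regulators, 15 of 15 passed (14 with a margin of 1), with Sox2 (11.00 ± 0.32) and Sox9 (11.48 ± 0.15), transcription factors of neural stem cells, and Hes1 (8.44 ± 0.10), a repressor induced by Notch. Of the surface, secreted and metabolic markers, 13 of 13 measured genes passed (12 with a margin of 1). They included Slc1a3 (11.59 ± 0.29), the glutamate transporter GLAST, Mfge8 (11.03 ± 0.91), a secreted glycoprotein, and Ttyh1 (11.41 ± 0.52), a membrane protein. Both shares exceed the 63.4% of all genes by count, and no test of a list was made.

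Genes described for basal radial glia passed in 8 of 10 cases (7 with a margin of 1). Tnc (10.45 ± 0.30), an extracellular matrix glycoprotein, and Lifr (9.26 ± 0.20), the receptor for leukaemia inhibitory factor, were above background. Fam107a (6.29 ± 0.06, limma adjusted p = 0.443) and Pdgfd (6.28 ± 0.34, adjusted p = 0.671) were at the line, as Hopx was.

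Relatives and partners of the members showed where the family resemblance ended. Of the other fatty acid binding proteins, 2 of 9 passed (2 with a margin of 1), Fabp3 (9.81 ± 0.06) and Fabp5 (10.38 ± 0.09), both known from the brain, while the remaining 7, such as the liver form Fabp1 (3.83 ± 0.01), lay under the line. In the intermediate filament family 7 of 9 passed (2 with a margin of 1), among them Ina (12.35 ± 0.11) and Nefl (9.54 ± 0.53), filament proteins of neurons, and Gfap (7.74 ± 0.98), that of astrocytes. Gfap did not pass without culture 1 (limma adjusted p = 0.0888) or without culture 3 (adjusted p = 0.1). Des, of muscle, and Prph, of peripheral neurons, did not pass (5.97 ± 0.20 and 6.22 ± 0.02).

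All 8 of 8 ligands, adhesion partners and relatives of Ptprz1 passed (8 with a margin of 1). Among them were both heparin-binding ligands, Ptn (10.84 ± 0.39) and Mdk (10.35 ± 0.28), and the axonal partner Cntn1 (12.05 ± 0.07). In the apical domain, the membrane on which Prom1 sits, 13 of 13 genes passed (9 with a margin of 1), with Pard3 (8.80 ± 0.10) and Prkci (10.03 ± 0.04), which set up apical polarity. Prom2, the relative of Prom1, gave 6.42, 6.45 and 6.84 (6.57 ± 0.23, limma adjusted p = 0.0327) and lost its call when any 1 culture was left out (adjusted p = 0.0529, 0.146 and 0.0749 without cultures 1, 2 and 3).

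**Figure D2:**
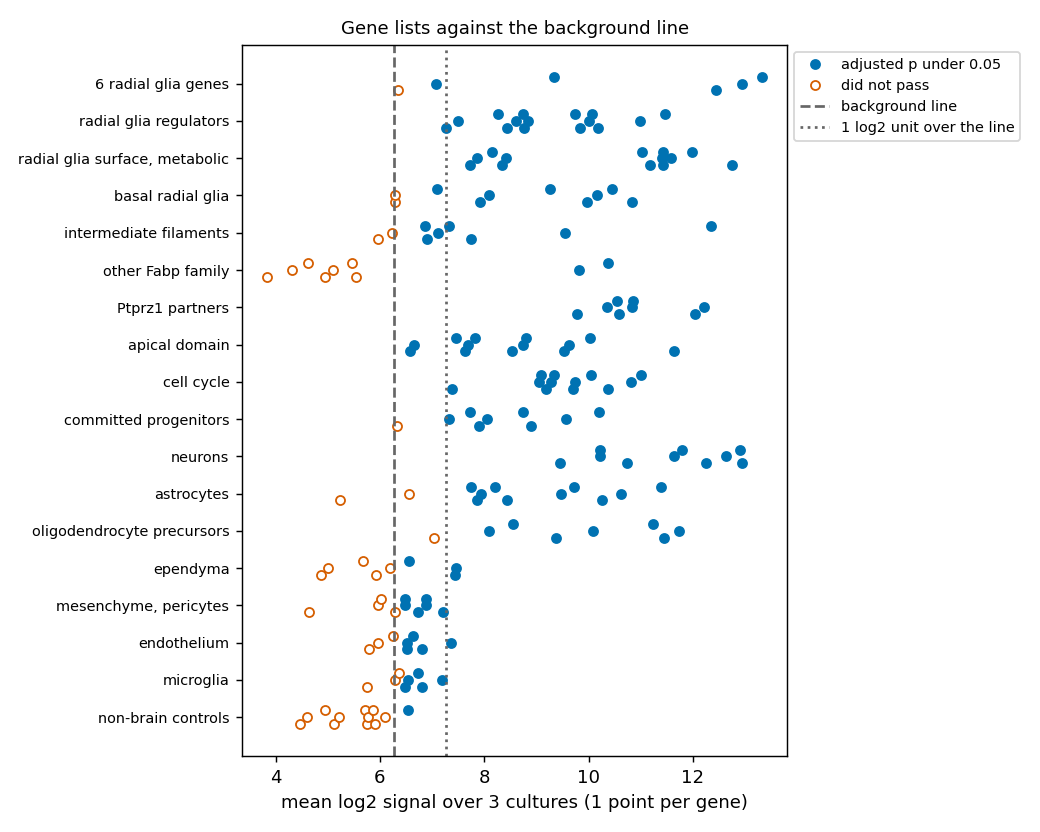
Mean log2 signal over 3 cultures (horizontal axis) of each measured gene of the 6 members and of 17 gene lists. Filled blue points passed the limma test and open orange points did not, the dashed line is background (6.26) and the dotted line lies 1 log2 unit above it. Most genes of radial glia, neurons, the cell cycle, astrocytes, oligodendrocyte precursors, committed progenitors and the Ptprz1 partners lie to the right. Most genes of ependyma, vessels, microglia and non-brain tissue lie near or left of the dashed line.

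The members varied in the same direction between cultures. All 6 were highest in culture 1, as were 32.4% of the 13155 genes above background, and 5 of 6 were lowest in culture 2, as were 24.9%. The exception, Nes, was lowest in culture 3. Culture 1 exceeded culture 2 by 0.48 log2 units for Fabp7, 0.42 for Ptprz1, 0.36 for Prom1, 0.28 for Nes, 0.16 for Vim and 0.052 for Hopx. The antilog ratio was 1.40 for Fabp7 and 1.04 for Hopx. The median of the 6 was 0.32, whereas the median over all genes above background was -0.06. A difference at least as large was found in 3.42% of the genes above background for Fabp7, 4.77% for Ptprz1, 6.62% for Prom1, 10.2% for Nes, 18.8% for Vim and 30.9% for Hopx. For every member but Nes this pair holds the highest and the lowest culture. That makes such shares smaller, and they are not p-values. With 1 array a culture there is no error within a culture, so these differences carry no test.

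The order was not equally firm for each gene. After quantile normalization and after centring each array on its median, 5 of 6 members were highest in culture 1, and Hopx was highest in culture 2 (6.35 against 6.35 in culture 1 after centring, a gap smaller than the second decimal). The count lowest in culture 2 was 4 after quantile normalization and 3 after centring. Quantile normalization took the range over the cultures from 0.48 to 0.35 for Fabp7 and from 0.42 to 0.36 for Ptprz1. For Vim it went from 0.16 to 0.095, and for Nes and Prom1 it was 0.35. The shares of genes given above and the ranges that follow are of the deposited values. The median range of the members over the cultures was 0.36 with all 3, 0.067 without culture 1, 0.23 without culture 2 and 0.32 without culture 3. For Nes, Vim and Prom1 the range was 0.075, 0.029 and 0.059 without culture 1 and 0.35, 0.13 and 0.30 without culture 2. For Fabp7 and Ptprz1 cultures 1 and 2 lay about equally far from the mean, and the range was 0.24 and 0.21 without culture 1 and 0.25 and 0.21 without culture 2. A range over 2 cultures cannot exceed that over all 3. For SD, the median of the 6 was 0.19, beside 0.12 over all genes above background. Fabp7 was more variable than 85.2% of those genes, Nes than 74.3%, Vim than 33% and Hopx than 5.45%.

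**Figure D3:**
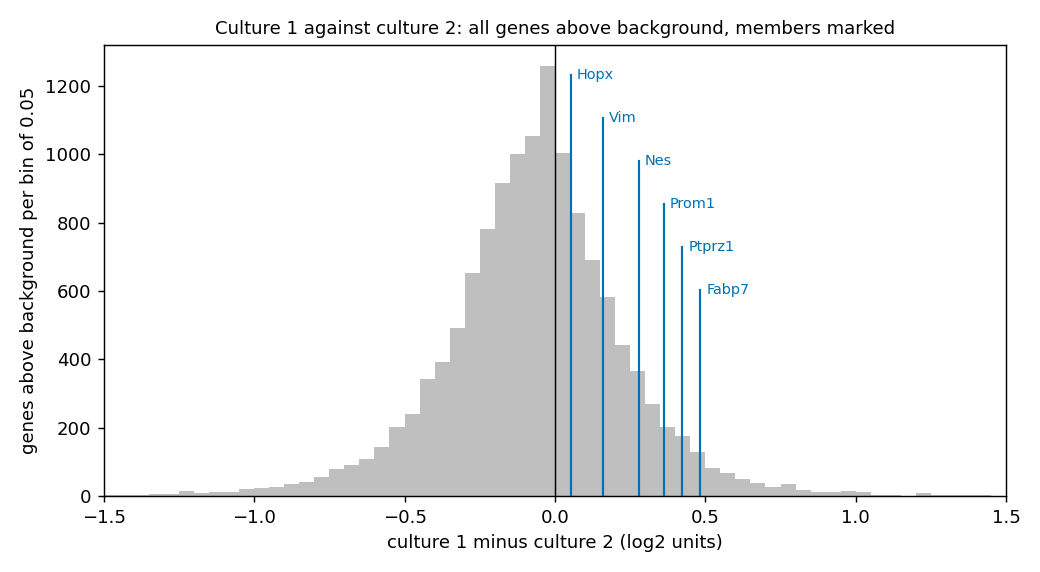
Difference between culture 1 and culture 2 in log2 units (horizontal axis) for the 13155 genes above background, counted in bins of 0.05 (vertical axis, grey), with the 6 members as blue lines whose heights carry no meaning. All 6 lie right of 0, from 0.052 for Hopx to 0.48 for Fabp7, while the genes as a whole centre on -0.06, and 16 genes lie outside the range drawn.

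Other lists of radial glia genes, apart from the apical domain list, deviated in the median in the same direction as the members. Astrocytes share several radial glia genes, so these lists and the astrocyte list below are not separate lines of evidence. In culture 1 the median deviation from each gene's own mean was 0.20 for the regulators, 0.26 for the surface and metabolic markers and 0.27 for the basal list, beside 0.21 for the 5 members above background and -0.02 for all genes above background. In culture 2 it was -0.13, -0.26 and -0.16 for the same lists, -0.14 for the 5 members and 0.04 for all genes. Without culture 1, with deviations taken from the mean of the other two, the culture 2 values were 0, -0.064, -0.0033 and -0.030 for the 3 lists and the members. Without culture 2, the culture 1 values were 0.14, 0.12, 0.18 and 0.12. Highest in culture 1 were 14 of 15 regulators, 12 of 13 surface and metabolic markers and 7 of 8 basal genes. The exceptions were the repressor Rest, Ddah1 and Moxd1, named after their values were seen. The apical domain list had a median deviation of 0.056 in culture 1 and 0.0060 in culture 2, with 7 of 13 genes highest in culture 1. The intermediate filament list, which leaves out Nes and Vim, had medians of the other sign, -0.088 and 0.067, but its genes were divided. Highest in culture 1 were 2 of 7, Gfap (0.77 in culture 1, -1.11 in culture 2) and Plec (0.10 and -0.14). Those that were not were Ina and Nefl, filament proteins of neurons, and Nefm, Nefh and Synm. Plec, Nefm, Nefh and Synm were named after their values were seen. Among the partners of Ptprz1, both ligands shared its order, Ptn with 11.23, 10.46 and 10.83 and Mdk with 10.66, 10.12 and 10.28 in cultures 1, 2 and 3, whereas Cntn1 did not, with 11.98, 12.05 and 12.12.

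Markers of astrocytes deviated the same way and by more in the median. Of 12 astrocyte genes 10 passed the test (9 with a margin of 1), and all 10 were highest in culture 1. Their median deviation was 0.40 in culture 1, -0.48 in culture 2 and 0.05 in culture 3. It was 0.20 in culture 1 without culture 2 and -0.25 in culture 2 without culture 1. The summed signal of the list (log2 of the summed antilogs of its measured genes) was 13.48, 12.61 and 13.10 log2 units in cultures 1, 2 and 3. The summed signal of the 6 members was 14.78, 14.42 and 14.57. Such a sum rests mostly on the probe sets of highest signal, here those of Fabp7, Vim and Ptprz1. Nes, Prom1 and Hopx add little to it. It is read between cultures only and is not set against the sum of another list. Gfap gave 8.51, 6.64 and 8.08, Aqp4, the water channel of astrocytes, 8.74, 7.53 and 8.34, and Aldh1l1, a folate enzyme, 10.69, 9.80 and 10.30. S100b (6.55 ± 0.33, limma adjusted p = 0.0879) and Gjb6 (5.23 ± 0.08, adjusted p = 1) did not pass with all 3 cultures, though S100b did without culture 2 (adjusted p = 0.0219). The part of astrocytes in the members' differences between cultures was not tested.

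Neuronal genes went the other way. Their median deviation was -0.17 in culture 1, 0.10 in culture 2 and 0.06 in culture 3, and 2 of 10 were highest in culture 1. Without culture 1 the value in culture 2 was 0.0066, and without culture 2 that in culture 1 was -0.11. Tubb3, a tubulin of neurons, gave 11.61, 11.92 and 11.84 in cultures 1, 2 and 3, and Dcx, a microtubule protein of young neurons, 11.66, 11.63 and 11.63. Gad1, which makes GABA, gave 9.64, 10.67 and 10.37, the widest gap between cultures 1 and 2 in the list. The summed signal of the list was 15.06, 15.33 and 15.30. Cell cycle genes (12 of 12 passed, 11 with a margin of 1) had a median deviation of 0.15, -0.04 and -0.08, and 10 of 12 were highest in culture 1. In culture 2 the sign turned without culture 1 (0.033). Mki67, the proliferation antigen, gave 10.24, 9.86 and 10.01, Top2a, a topoisomerase of dividing cells, 9.51, 9.29 and 9.23, and Cdk1, the mitotic kinase, 10.54, 10.35 and 10.23. Oligodendrocyte precursor genes (7 of 8 passed, 7 with a margin of 1) had 0.14, -0.05 and -0.03, with 6 of 7 highest in culture 1. Pdgfra, a growth factor receptor, gave 11.51, 11.42 and 11.42 and Olig1, a transcription factor, 11.84, 11.66 and 11.73. Wider gaps were seen for Gpr17, with 10.75, 9.42 and 10.06, and Sox10, with 8.94, 8.23 and 8.47, both named after their values were seen. The exception, the proteoglycan gene Cspg4, gave 8.0, 8.19 and 8.08 and was highest in culture 2. Enpp6 (7.03 ± 0.85, limma adjusted p = 0.0684) missed the threshold with all 3 cultures and passed without culture 2 (adjusted p = 0.0146). Committed progenitor genes (8 of 9 passed, 7 with a margin of 1) had 0.09, -0.06 and -0.03, with 4 of 8 highest in culture 1. In that list Dlx2 (10.20 ± 0.10), of ventral progenitors, passed and Eomes (6.33 ± 0.29, limma adjusted p = 0.464), of dorsal intermediate progenitors, did not. The proneural factor Neurog2 passed in the same list (7.32 ± 0.22, adjusted p = 0.000361). No contrast of ventral and dorsal progenitors is drawn from these genes. The part of these cell types in the members' differences was not tested either.

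**Figure D4:**
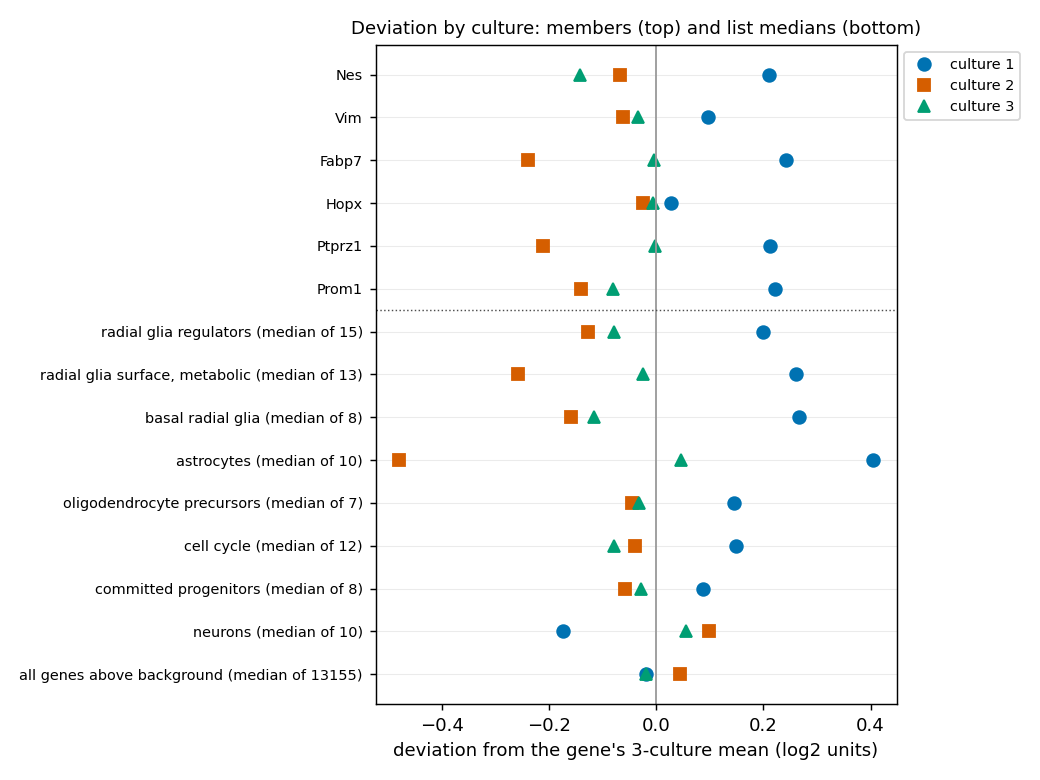
Deviation of each culture from the gene's own 3-culture mean in log2 units (horizontal axis) for the 6 members (upper rows) and as the median over the above-background genes of 8 lists and of all genes (lower rows, number of genes in parentheses). Culture 1 (blue circles) lies right of 0 for all 6 members, for the radial glia, astrocyte, precursor and cell cycle lists and left of it for neurons (-0.17), and astrocytes span the widest range, from -0.48 to 0.40.

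Genes of other cell types that contain vimentin or descend from radial glia mostly gave signal close to background. No gene of the ependymal, pericyte and fibroblast, endothelial or microglial lists passed the test with a margin of 1. The means of Foxj1, Ccdc153 and the endothelial gene Kdr lay more than 1 log2 unit over the line without passing at that margin. Without the margin 3 of 8, 6 of 10, 5 of 8 and 5 of 8 genes passed, none of these shares above the 63.4% of all genes. Foxj1, the regulator of motile cilia, passed (7.43 ± 0.50), as did Ccdc153 (7.46 ± 0.27), and Tmem212 (5.01 ± 0.19), Rsph1, Dynlrb2, Cfap126 and Pifo of the ependymal list did not. Col1a1 (7.22 ± 0.22) and Pdgfrb (6.88 ± 0.08) passed and Col1a2, Dcn, Lum and Kcnj8 did not. The endothelial adhesion genes Pecam1 (6.52 ± 0.14), Cdh5 and Cldn5 passed and Tek, Tie1 and Esam did not. Kdr (7.36 ± 0.12) of the same list also passed and was named after its value was seen. Of the microglial genes Aif1 and Cx3cr1 passed and Csf1r (6.36 ± 0.12), Itgam and Tmem119 did not. The endothelial count was 2 without culture 1 and 3 without culture 2, and the microglial count was 2 without culture 3. Among the genes just named, Pecam1 did not pass without culture 1 or 2, Cldn5 without culture 1 or 3 and Aif1 without culture 2 or 3. Summed signal of the pericyte and fibroblast list ran from 9.81 to 9.84 over the cultures, and by summed signal culture 1 was the highest in none of these 4 lists. These sums include genes that did not pass and are largely background. The order of the cultures in them therefore does not show which culture held more of these cells. Of 12 measured genes of muscle, liver, pancreas, skin and testis 1 passed, Apoa2 (6.54 ± 0.08), named after its value was seen, which did not pass without culture 2 (limma adjusted p = 0.0761), and Myh1, Myh2 and Myh4 were under the line.

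Some listed genes came very close to single members in their course over the 3 cultures. Likeness was the root mean square difference of the centred values, over 132 listed genes above background, and 3 cultures leave much room for chance likeness. Nearest to Fabp7 were Bcan (0.022), a proteoglycan of glia, and Neurog2 (0.023), a proneural factor. To Ptprz1 they were Neurog2 (0.011) and Lifr (0.018), and to Prom1 they were Btg2 (0.015), an antiproliferative gene of neurogenic progenitors, and Pax6 (0.016). Nes was nearest to Top2a (0.032) and Zfp36l1 (0.033), an RNA-binding protein. Vim was nearest to Olig1 (0.016) and Pdgfra (0.025), genes of oligodendrocyte precursors, and Hopx, which scarcely varied, to the neuronal genes Dcx (0.010) and Map2 (0.011). Between 0.106% and 3.03% of all genes above background were as near to the member as these. Picking the nearest among 132 genes makes such shares small in itself.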

How the data were processed

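Gene expression was measured in 3 cultures on 1 array each. The values are log2 signals deposited by the authors, 1 for each probe set on each array. The submitters' processing notes name oligo and RMA, a method that subtracts background, brings arrays to a common distribution and summarizes probes. Their versions were not given in the sources used here. RMA equalizes the arrays, so a change shared by most genes would not be seen. Arrays give no read depth, and their number limits the precision.

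Symbols came from the platform's table: 23521 probe sets had 1 symbol, 1814 several and 16010 none. The 7 member probe sets matched RefSeq gene identifiers with 0 symbol differences. A gene counted as above background where at least 1 of its probe sets passed limma 3.58.1 (R 4.3.3, intercept model, adjusted p under 0.05), and its highest probe set is printed. Receptor probe sets were not tested. Lists numbered 17 (177 genes). Named were all members, the first 3 measured genes of each list, genes that did not pass where a list had 5 or fewer, the 2 nearest genes to each member, and others as said. The members and lists were chosen with earlier results of these data known. The call was tested on simulated data (10 draws, each fitted over 22081 probe sets): of 500 probe sets placed 0.25, 0.5, 1 and 2 over the line, 68.4%, 94%, 99.6% and 100% were called, and 0.13% of those under it. Alternatives were other lines, a margin, a variance trend, normalizations, a filter, probe set averaging and leaving out cultures.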

Additional observations from a re-analysis of the deposited data

How the results depend on the processing

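Nes, Vim, Fabp7 and Ptprz1 were above background under all 13 alternatives, with limma adjusted p values up to 0.00146 for Nes and 0.000489 for the other 3 where a test was made. The count of members above background was 4 with the line at the 99th percentile or a margin of 1, 6 at the 90th percentile and with every culture over the line and no test, and 5 otherwise. Relative to the 99th percentile Hopx lay at -0.76 and Prom1 at -0.029, and relative to the margin of 1 at -0.92 and -0.19. Prom1 passed in the other 11, with an adjusted p of at most 0.0131 when 1 culture was left out. Hopx had an adjusted p of 0.108 to 0.662 with 1 culture left out, and its margin of 0.081 is smaller than the 0.25 at which 68.4% of simulated probe sets were called.

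At the 99th percentile 3 intermediate filament genes, 1 ependymal, 0 pericyte and fibroblast, 1 endothelial, 0 microglial and 0 non-brain genes passed, and with a margin of 1 the counts were 2, 0, 0, 0, 0 and 0. At the 90th percentile 2 non-brain genes passed. Members lowest in culture 2 numbered 3 after median centring. With 1 culture left out, the endothelial count ran from 2 to 4, the microglial from 2 to 4, the non-brain from 0 to 1 and the median range of the members from 0.067 to 0.32. In these fits fewer cultures enter the test. The median deviations of the lists also moved, in part because the mean then rests on 2 cultures: in culture 2, without culture 1, from -0.48 to -0.25 for astrocytes, from -0.16 to -0.0033 for the basal list, from -0.13 to 0 for the regulators and from -0.039 to 0.033 for the cell cycle, and in culture 1, without culture 2, from 0.40 to 0.20 for astrocytes. For the other changes the alternative itself moves the line or the arrays. No paired analysis was possible because the series has 1 group.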
